A study of Zea mays with 4 samples.

Results

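Maize genes for starch synthases, 5 in all, were followed through 4 libraries of central starchy endosperm. They were chosen by gene model identifier and are 5 of 110028 gene models in each library. The soluble enzymes were ss1 (GRMZM2G129451), su2 (GRMZM2G348551) and du1 (GRMZM2G141399). The granule-bound enzymes were wx1 (GRMZM2G024993) and gbss2a (GRMZM2G008263). The libraries form 1 group. Each was made from B73 inbred kernels at 6 days after pollination (DAP), from greenhouse plants that had been self-pollinated. The inner storage tissue of the kernel was isolated by laser-capture microdissection, and its RNA was treated with DNase and amplified before sequencing. No treatment, genotype or second stage is available for comparison, and nothing states whether the replicates came from separate plants or ears, so the spread given below may be technical.

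Starch synthases lengthen glucan chains by adding glucose from ADP-glucose to a non-reducing end. The soluble enzymes build amylopectin, with starch synthase I known to favour the shortest chains, starch synthase IIa chains of middle length and starch synthase III longer ones. Granule-bound synthase stays inside the starch granule and makes amylose. In maize these genes carry kernel mutants: loss of wx1 gives waxy kernels without amylose, and dull1 (du1) and sugary2 (su2) mutants have altered starch. The gbss2a gene encodes a second granule-bound isoform, of the kind known from tissues other than the storage endosperm.

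Levels are given in RPM, the reads of a gene model per 1000000 reads counted on all gene models of a library. The libraries held 3432952, 5428283, 4754684 and 5477465 reads in replicates 1 to 4. Transcript lengths were not used here, so a value in RPM compares 1 gene between libraries, while a ratio between genes compares reads and not numbers of transcripts. The DU1 protein is known to be longer than the other starch synthases, and whether reads scale with transcript length in this amplified RNA was not tested.

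The tissue label was set against marker lists, which were chosen with earlier results of these data known. Of 8 models named on the starchy endosperm list, 6 averaged 1 RPM or more, led by the PLATZ factor gene fl3, while the o2 model was at 0 in every library. The symbols o11 on this list and betl9 and tcrr1 on the transfer layer list matched no model, so the sums leave them out. The Opaque11 model named further below, with 142 to 161 RPM, was not in the starchy endosperm sum. Replicate 4 stood apart from the other libraries. Its summed level over the 8 starchy endosperm models was 1576 RPM, against 2238 to 2772 RPM in replicates 1 to 3. Most of that sum was fl3, with 1400 RPM in replicate 4 and 2107 to 2674 RPM in the others. The zinc finger factor gene nkd1 on the same list went the other way, with 105 RPM in replicate 4, against 43.99 to 69.6 RPM. So did nkd2 (27.2 RPM, against 13.98 to 23.3 RPM) and ohp1 (37.6 RPM, against 34.9 to 36.1 RPM). The gz27 model had 3.83 RPM in replicate 4, against 0.184 to 0.631 RPM. Like fl3, the pbf1 model GRMZM2G146267 was lowest there, at 1.64 RPM. The summed level over the 4 models of the transfer layer list, all at a mean of 1 RPM or more, was 56.96 RPM in replicate 4, against 248 to 521 RPM in replicates 1 to 3. On that list betl2, betl10 and mn1 were lowest in replicate 4, while ebe1 was highest there, at 27.2 RPM. Over the 3 models of the embryo-surrounding region the sum was 1.64 RPM in replicate 4, against 22.9 to 33.9 RPM in the other libraries. The 6 aleurone models, of which the anthocyanin regulators r1 and c1 were at 0 everywhere, summed to 109 RPM in replicate 4, against 127 to 135 RPM. Among them sal1, dek1 and vpp1 were lowest in replicate 4, while cr4 was highest there, at 29.2 RPM. The 5 embryo models, of which glb2 and wox5b were at 0 everywhere, summed to 45.5 RPM in replicate 4, against 25.3 to 31.5 RPM. The 4 models of maternal and green tissue summed to at most 1.46 RPM in any library, with bde1 and rbcs1 at 0.

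Of the 5 starch synthase genes, 4 were read in every library, and wx1 in none. Together they took 2718 of 19093384 reads, and their summed level was 141 ± 10.7 RPM (SD, n = 4). Fewer cells with a transcript and less of it in each cell cannot be told apart in such pooled tissue. A mean of at least 1 RPM was reached by 4 of the 5, beside 19.3% of all gene models, and one of at least 10 RPM by 3, beside 10.2%. Their median was 13.2 RPM.

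The dull1 gene, for starch synthase IIIa, gave most of these reads. It had 324, 517, 471 and 558 reads in replicates 1 to 4, or 94.4, 95.2, 99.1 and 101.9 RPM. The highest value was 1.08 times the lowest, and the exact 95% Poisson intervals all overlap (84.4 to 105.2 RPM in replicate 1 and 93.6 to 110.7 RPM in replicate 4). The mean was 97.6 ± 3.48 RPM (SD, n = 4), which placed du1 at rank 1868 of 110028 models, above 95.04% of the 37643 models with any read.

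The ss1 gene, for starch synthase I, had 87, 148, 118 and 177 reads, or 25.3, 27.3, 24.8 and 32.3 RPM in replicates 1 to 4. Replicate 4 was highest and the other 3 libraries lay close together. Over all libraries the mean was 27.4 ± 3.42 RPM (SD, n = 4), with the highest library at 1.30 times the lowest. The gene ranked 6257 by mean level.

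The su2 gene, for starch synthase IIa, had 35, 54, 65 and 105 reads, or 10.2, 9.95, 13.7 and 19.2 RPM in replicates 1 to 4. This was the member with the widest spread, with a mean of 13.2 ± 4.30 RPM (SD, n = 4) and a ratio of 1.93 between the highest and the lowest library. The 95% Poisson interval of replicate 4, 15.7 to 23.2 RPM, did not overlap those of replicate 1 (7.10 to 14.2 RPM) and replicate 2 (7.47 to 12.98 RPM), and it did overlap that of replicate 3 (10.6 to 17.4 RPM). The gene ranked 9923 by mean level.

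Among the granule-bound isoforms, wx1 had 0 reads in each of the 4 libraries. At this depth 3 reads correspond to 0.874, 0.553, 0.631 and 0.548 RPM in replicates 1 to 4 and to 0.157 RPM over all libraries, so a wx1 level up to about that height would not have been detectable. It shared a level of 0 with 65.8% of all gene models. How the authors counted reads that match several places is not given in the sources used here, and a read count of 0 does not tell that apart from missing transcripts.

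The paralog gbss2a had 12, 16, 11 and 20 reads, or 3.50, 2.95, 2.31 and 3.65 RPM in replicates 1 to 4. Its Poisson intervals are wide, from 1.15 to 4.14 RPM in replicate 3 and from 2.23 to 5.64 RPM in replicate 4, and all of them overlap. The mean was 3.10 ± 0.606 RPM (SD, n = 4), at rank 16614. With wx1 set at 3 reads over all libraries, gbss2a had at least 19.7-fold more reads than wx1, su2 at least 86.3-fold, ss1 at least 177-fold and du1 at least 623-fold. These bounds leave out the counting error of the gene with reads. For none of the 4 genes with reads did another gene model show the same counts, the sign of a shared set of reads.

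**Figure D1:**
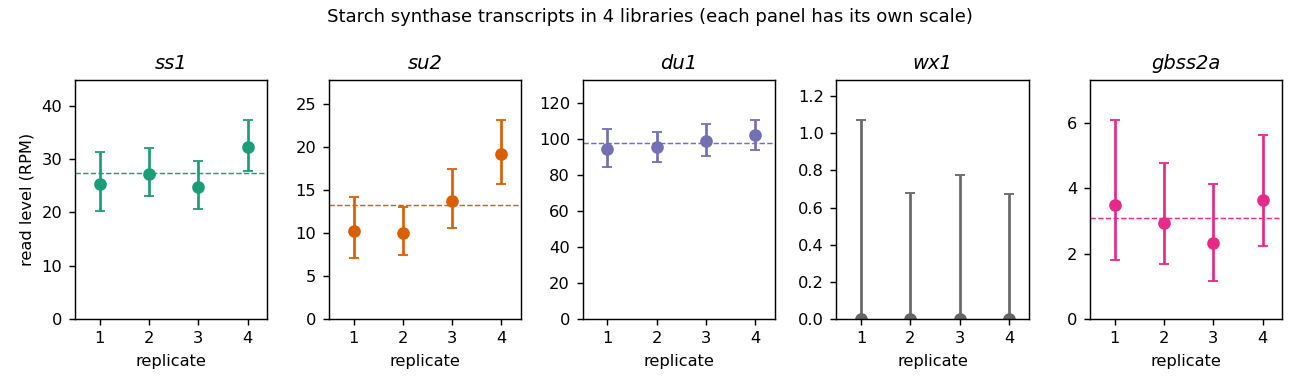
Read level in RPM (vertical axis, each panel with its own scale from 0) in replicates 1 to 4 (horizontal axis) for the 5 starch synthase genes. Points are libraries, bars exact 95% Poisson intervals, which cover counting error only, and dashed lines the mean of 4 libraries. The du1 values lie between 94.4 and 101.9 RPM, su2 is highest in replicate 4 at 19.2 RPM, and wx1 is at 0 throughout.

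Within every library the order of read numbers was the same, du1 first, then ss1, su2, gbss2a and wx1. There were 3.72, 3.49, 3.99 and 3.15 reads of du1 for each read of ss1 in replicates 1 to 4, a mean of 3.59 ± 0.356 (SD, n = 4). For each read of su2 there were 9.26, 9.57, 7.25 and 5.31 reads of du1, a mean of 7.85 ± 1.98. The first ratio differed by 1.27-fold between its extreme libraries and the second by 1.80-fold. The length of a transcript is the same in every library, but whether its effect on the reads is also the same was not tested.

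Starch synthase I exceeded starch synthase IIa in reads by less than the other pairs. The ratio of ss1 to su2 was 2.49, 2.74, 1.82 and 1.69 in replicates 1 to 4 (mean 2.18 ± 0.512, SD, n = 4), and its exact 95% binomial intervals ran from 1.99 to 3.82 in replicate 2 and from 1.32 to 2.17 in replicate 4, so the highest and the lowest library overlap. The ratio of su2 to gbss2a was 2.92, 3.38, 5.91 and 5.25, the least even of the 6 ratios, with a 2.03-fold difference between extreme libraries. Its intervals were also wide, from 1.48 to 6.17 in replicate 1 and from 3.09 to 12.4 in replicate 3. The ratio of du1 to gbss2a lay between 27 and 42.8 and that of ss1 to gbss2a between 7.25 and 10.7.

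On the log2(RPM + 0.5) scale the mean within-library difference in reads was 1.82 ± 0.14 for du1 over ss1, 2.88 ± 0.38 for du1 over su2, 4.78 ± 0.26 for du1 over gbss2a, 1.06 ± 0.33 for ss1 over su2, 2.96 ± 0.20 for ss1 over gbss2a and 1.90 ± 0.46 for su2 over gbss2a (SD, n = 4). Each of the 6 differences was above 0 in 4 of 4 libraries. Each gave p = 0.13 in a two-sided exact sign-flip permutation test, which is the smallest p that 4 libraries allow, so none could reach 0.05. The summed soluble genes had 129.9, 132.5, 137.5 and 153.4 RPM in replicates 1 to 4, and the granule-bound genes, all of it gbss2a, 3.50, 2.95, 2.31 and 3.65 RPM. Their log2 difference was 5.28 ± 0.25, above 0 in 4 of 4 libraries (exact sign-flip permutation p = 0.13).

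As shares of the reads of all 5 genes, du1 took 70.7%, 70.3%, 70.8% and 64.9% in replicates 1 to 4. The share in replicate 4 was lower than in the other libraries, though its exact 95% interval of 61.6% to 68.1% overlapped those of replicates 1 (66.3% to 74.9%), 2 (66.9% to 73.6%) and 3 (67.2% to 74.3%). The su2 gene took 7.64%, 7.35%, 9.77% and 12.2%, highest in replicate 4, where the interval of 10.1% to 14.6% lay above that of replicate 2 (5.57% to 9.48%) and overlapped those of replicates 1 and 3. The ss1 share stayed between 17.7% and 20.6%, and the gbss2a share between 1.65% and 2.62%. In 0 of 458, 735, 665 and 860 reads was wx1 found, where 3 reads would be a share of 0.655%, 0.408%, 0.451% and 0.349%. The exact 95% intervals of its share reached up to 0.802%, 0.501%, 0.553% and 0.428% in replicates 1 to 4. Without replicate 4 the mean share was 70.6% for du1 and 8.25% for su2, against 69.2 ± 2.88% and 9.24 ± 2.25% with it (SD, n = 4).

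**Figure D2:**
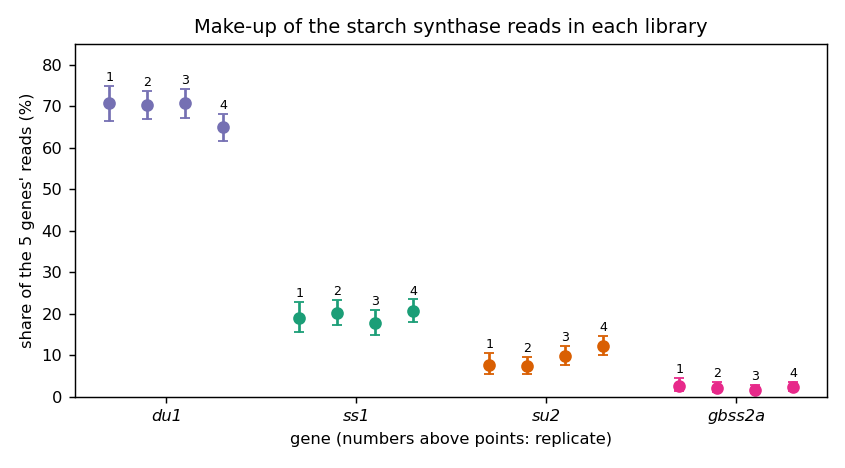
Share of the reads of the 5 starch synthase genes that each gene took (vertical axis, percent) in each library, for the 4 genes with reads (horizontal axis, replicate numbers above the points). Bars are exact 95% Clopper-Pearson intervals for counting error. The du1 share is 64.9% in replicate 4 and 70.3% to 70.8% in the others, and the su2 share is 12.2% in replicate 4.

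The spread of each member between libraries was set against that of all 11272 gene models with a mean of 10 RPM or more, whose SD of log2(RPM + 0.5) had a median of 0.22. For du1 the SD was 0.05, and 2.01% of these models had a smaller one. Counting error alone would give du1 an SD of 0.07, so by library totals the observed spread was no larger than counting error. The SD of ss1 was 0.17 (34.5% of models smaller, 0.13 from counting error alone) and that of su2 was 0.43 (87.8% smaller, 0.19 from counting error). For gbss2a, below 10 RPM, it was 0.25, against 0.39 from counting error alone. Each gene was also set against models close to its own mean level. The median SD of such models was 0.17 for du1, 0.22 for ss1, 0.27 for su2 and 0.41 for gbss2a, larger at lower levels. A smaller SD was found in 80.0% of the 2259 models near su2 and in 32.2% of the 2089 near ss1. The share was 2.63% of the 952 models near du1 and 20.2% of the 1864 near gbss2a. Single libraries decide much of this spread: without replicate 4 the SD was 0.07 for ss1 and 0.24 for su2, and without replicate 3 it was 0.14 for gbss2a.

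How even du1 appears depends on the scaling. The median of these 11272 models was lower in replicate 4 than in replicates 1 to 3 by a log2 difference of -0.10. After TMM scaling, which evens out such a shift of the bulk of genes, that difference was 0.04 and the SD of du1 was 0.12, with 18.4% of models below it. The SD of su2 was then 0.50 and that of ss1 0.24. On the log2 scale replicate 4 minus the mean of replicates 1 to 3 was 0.08 for du1, 0.32 for ss1, 0.75 for su2 and 0.29 for gbss2a by library totals, and 0.23, 0.46, 0.90 and 0.42 after TMM scaling. Of the 11272 models, 2.35% had a larger such difference than su2 by library totals.

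**Figure D3:**
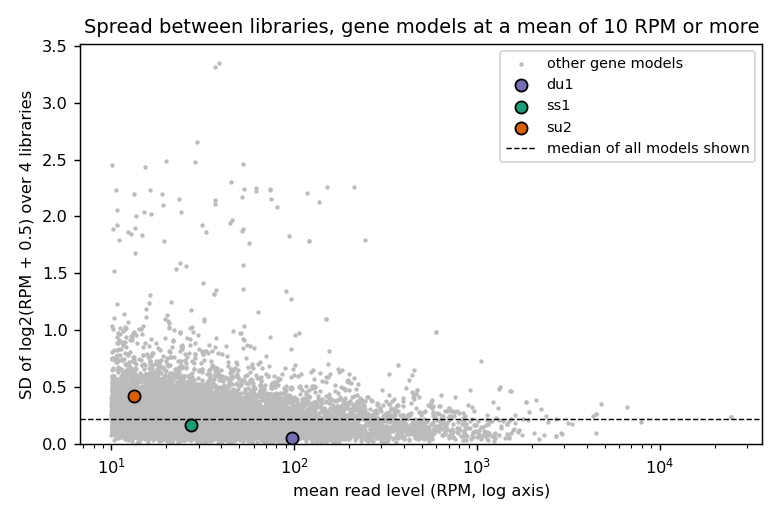
SD of log2(RPM + 0.5) over 4 libraries (vertical axis) against mean read level in RPM (horizontal log axis) for the 11272 gene models at a mean of 10 RPM or more, with du1, ss1 and su2 marked and the median as a dashed line. The SD of du1, 0.05, lies near the lower edge, ss1 lies below the median of 0.22 and su2, at 0.43, above it.

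A chi-square test of the whole reads against TMM library sizes asked which genes differed between libraries by more than counting error. It was run on all 21073 models with at least 20 reads in total, with Benjamini-Hochberg adjustment over all of them, and it called 38.4% of them, so a call is common in these libraries. Of the 5 members, 4 were tested and wx1, without reads, was not. The test called 3 of the 4: su2 (adjusted p = 1.7e-05), ss1 (adjusted p = 0.017) and du1 (adjusted p = 0.034), while gbss2a gave adjusted p = 0.61. With library totals in place of TMM sizes, 40.4% of models were called, and su2 remained the only member called (adjusted p = 0.00058), with ss1 at 0.17 and du1 at 0.71.

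Without replicate 4 none of the 4 members was called, where 15.9% of all tested models were. The chi-square adjusted p was then 0.30 for su2, 0.92 for ss1, 0.66 for du1 and 0.80 for gbss2a, and the mean level of su2 was 11.3 ± 2.08 RPM over the other 3 libraries (SD, n = 3). At an unadjusted p under 0.05 none was below the threshold either, the lowest being su2 with a chi-square p of 0.11. Without replicate 3, where 37.9% of all tested models were called, su2 (1.7e-06), ss1 (0.012) and du1 (0.0038) were called as with it. Without replicate 2, with 34.2% of models called, du1 was not (chi-square adjusted p = 0.058), and neither was it when all 37643 models with any read were tested (20.7% called, adjusted p = 0.056). The library in which su2 was highest is the one with the lowest starchy endosperm, transfer layer, embryo-surrounding and aleurone marker sums given above. It also had the highest embryo marker sum. The starchy endosperm sum was mostly fl3, and nkd1, nkd2, ohp1 and gz27 on that list were highest in this library. The part of these marker levels in the su2 level was not tested.

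Other genes of starch synthesis were looked up by 35 symbols, of which 21 matched no gene model. One more matched only wx1 itself, and ss2 was left out because its model is also named sus1, a sucrose synthase. The other 12 symbols gave 15 models. Of the 9 models whose symbol had no second match, 4 reached a mean of 1 RPM and 2 a mean of 10 RPM. Of all 15 models, 9 reached 1 RPM and 7 reached 10 RPM, with a median of 5.25 RPM. Beside this, 19.3% of all gene models reached 1 RPM and 10.2% reached 10 RPM. Among gene models with any read the shares were 56.3% and 29.9%. The chi-square test called 5 of the 9 of these 15 that could be tested, beside the 38.4% of all models.

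Upstream of the synthases, ADP-glucose pyrophosphorylase makes ADP-glucose from a large and a small subunit, and bt1 carries it into the plastid. The agp2 models GRMZM2G106213 and GRMZM2G027955 had 107 ± 33.0 and 41.1 ± 9.60 RPM and agpsl1 5.25 ± 1.06 RPM (SD, n = 4). The subunit genes of the filling endosperm, sh2 and bt2, had 0.460 ± 0.158 and 0.778 ± 0.420 RPM, and bt1 had 3 reads in all. Like wx1, these were thus at or near 0. The more abundant agp2 model had 126.1, 137.6, 99.9 and 63.2 RPM in replicates 1 to 4. It was lowest in replicate 4, where du1, ss1, su2 and gbss2a had their highest values. The other agp2 model, at 30.3 RPM, and bt2 were also lowest there. The agpsl1 gene went the other way, with 6.21 RPM in replicate 4, against 4.08 to 6.08 RPM, and so did bt1 with its few reads. Most reads of the supply models came from agp2. The summed reads of the 5 synthases were 0.767, 0.682, 0.967 and 1.56 times those of the 6 ADP-glucose supply models in replicates 1 to 4.

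Among the branching enzymes, which introduce the branch points between the chains, the model GRMZM2G032628, named both ae1 and sbe1 in the reference table, had 212.1, 173.9, 195.4 and 255.6 RPM, highest in replicate 4. The second model named ae1, GRMZM2G039942, had 1 read in all. The 2 further models named sbe1 had 17.7 ± 3.80 and 11.9 ± 2.09 RPM, and sbe3 had 3.49 ± 0.236 RPM (SD, n = 4). The reads of the 5 synthases were 0.529, 0.645, 0.630 and 0.550 times those of the 5 branching models in replicates 1 to 4, a more even ratio (0.588 ± 0.0573, SD, n = 4) than that to the ADP-glucose supply models (0.994 ± 0.396).

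The debranching enzymes trim misplaced branches. The pullulanase gene zpu1 had 28.3, 13.1, 11.1 and 7.30 RPM in replicates 1 to 4, highest in replicate 1 and lowest in replicate 4, and iso2 and iso3 averaged 0.967 and 0.389 RPM. The starch phosphorylase gene pho1, whose enzyme also acts on glucan chain ends, had 39.9, 35.0, 43.96 and 49.5 RPM and, like ss1 and su2, its highest value in replicate 4. In the chi-square test both differed between libraries (zpu1 adjusted p = 1.7e-12, pho1 adjusted p = 7.8e-05), and without replicate 4 zpu1 was still called (6.9e-08) and pho1 was not (0.14).

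**Figure D4:**
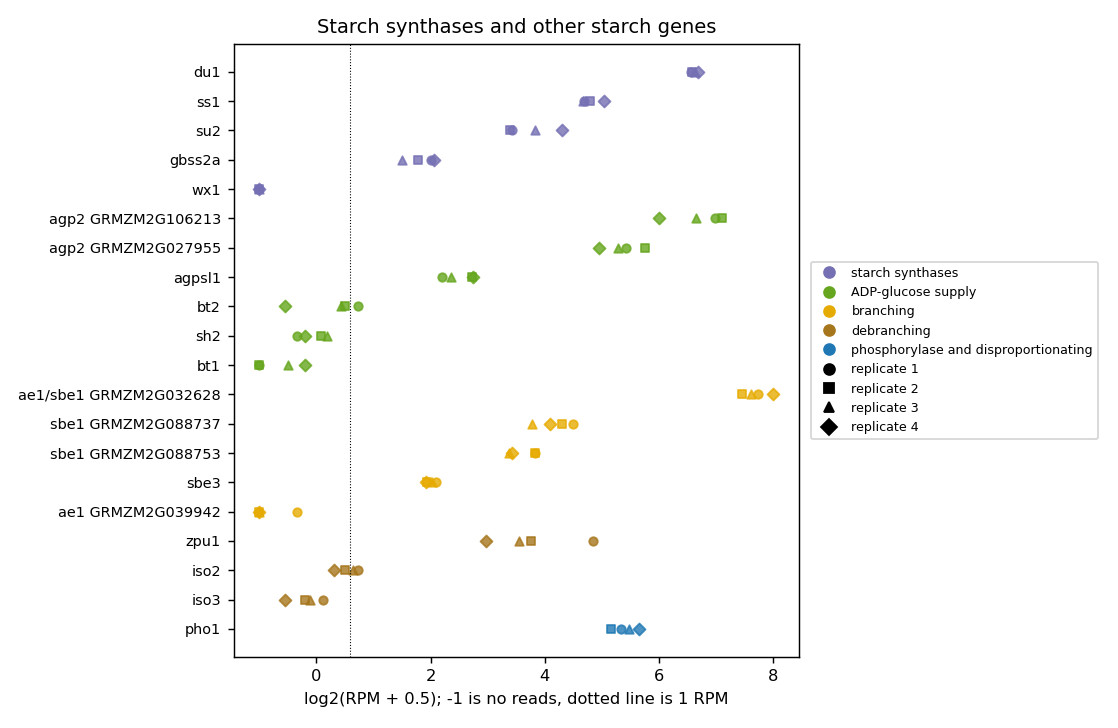
Levels of the 5 starch synthase genes and 15 other starch gene models on the log2(RPM + 0.5) scale (horizontal axis, where the left edge of the points means no reads) in each library, with colours for the step and symbols for the replicate. The du1, ss1 and su2 genes lie among the higher models, and gbss2a a little above the dotted line at 1 RPM. At the low end are wx1, bt1, sh2, bt2, iso2, iso3 and the ae1 model GRMZM2G039942.

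**Figure D5:**
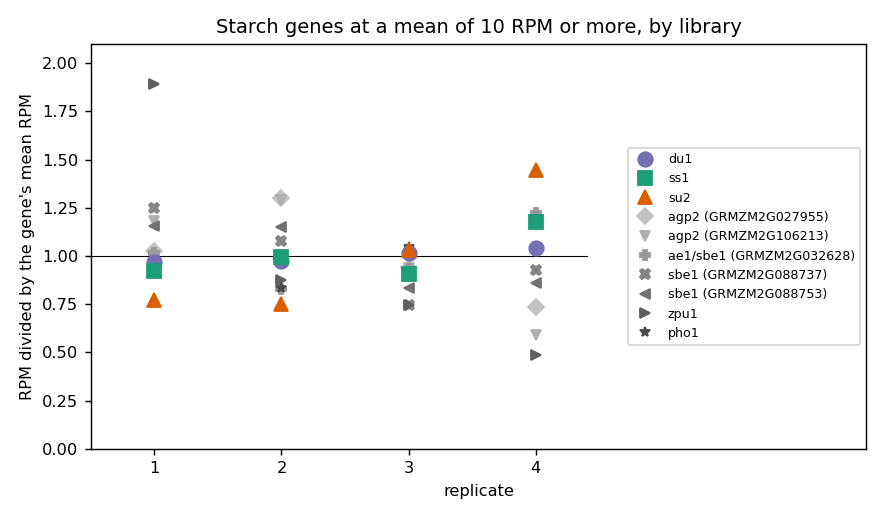
RPM of each starch gene model at a mean of 10 RPM or more divided by its own mean over the 4 libraries (vertical axis) in replicates 1 to 4 (horizontal axis), with du1, ss1 and su2 in colour and other models in grey. In replicate 4 su2 stands at 1.45 and ss1 at 1.18 times its mean and du1 at 1.04, with zpu1 at 0.489 and the agp2 model GRMZM2G106213 at 0.592.

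The genes with the most similar pattern over the 4 libraries were looked for among 55 models other than the members. These models average 10 RPM or more and carry a single gene symbol in the reference table that does not start with LOC. They are a small part of the 11272 models at that level, and the rest were not searched. Likeness was the root-mean-square difference of log2(RPM + 0.5) after each gene was centred on its own mean. Nearest to du1 were pco097024a at 0.02 and Opaque11, the gene of a bHLH factor of the endosperm, at 0.04. Nearest to su2 were CCOAOMT2 at 0.02 and OBF1 at 0.14, where the median of the 55 was 0.45. Nearest to ss1 were met5 at 0.05 and sbp20 at 0.09, where the median was 0.26. Opaque11 had 142, 151, 161 and 159 RPM and CCOAOMT2 14.9, 14.4, 20.2 and 27.0 RPM in replicates 1 to 4. These likenesses rest on 4 libraries that share depth and composition, and du1, with little spread, has 7 of the 55 within 0.1.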

How the data were processed

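The members and gene lists were chosen with earlier results of these data known. The deposited values are a signal per gene model that the authors scaled to the same total in every library. The values show this, since no label describes it, and bedtools is named without version or role per the submitters' processing notes. Neither the aligner nor the build, annotation or strandedness is given in the sources used here. Every non-zero value was a whole multiple of the library's smallest one, within a tolerance of 0.01 reads for 100% of values, so whole reads were recovered. In replicate 3 the step lies close to 1, so values without it are given. RPM divides reads by the library total. Poisson (95%) and Clopper-Pearson intervals and floors of 3 reads cover counting error only, because RNA was amplified and no molecular identifiers mark single molecules.

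Differences between libraries were tested by chi-square on recovered reads against TMM sizes (edgeR 4.0.16), for models with at least 20 reads, adjusted by Benjamini-Hochberg at 0.05. It compares libraries, not conditions. On reads of 21073 genes simulated with counting error only, it recovered 91 of 100 genes changed 2-fold and 59 of 100 changed 1.5-fold in 1 library. It called 7 unchanged ones. The changed genes were drawn from models with at least 100 reads, so these rates do not cover gbss2a. Spread beyond counting error was not simulated. Gene pairs were compared by exact sign-flip tests with a pseudocount of 0.5 RPM. Division by coding length, a family search by protein sequence and promoter motifs had been planned and were not run, as no sequences were used here. Gene names came from the synonyms in a RefSeq gene table (Zm-B73-REFERENCE-NAM-5.0), matching 18786 of the 110028 models. Named genes are the members, all single-model pathway genes, and for members at 10 RPM or more the 2 genes of most similar pattern. Genes of similar pattern were sought only among models with a single symbol that does not start with LOC. Pathway models of symbols with several matches are named as well. Marker genes were named after their values were seen. Alternatives were scaling, filters, pseudocounts and leaving out each replicate, with DESeq2 1.42.0 size factors among them, and R 4.3.3, Python 3.11.15 and scipy 1.17.1 were used.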

Additional observations from a re-analysis of the deposited data

Results flagged for a closer look

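The du1 share of the starch synthase reads was 64.9% in replicate 4, below the other 3 libraries, which lay between 70.3% and 70.8%. The gap to the nearest of these was 0.918 of the whole range, above Dixon's 95% critical value for 4 samples. Dixon's ratio leaves out the counting error of each share. By that error, the exact 95% interval of replicate 4 (61.6% to 68.1%) overlapped those of the other 3 libraries. Of 25 such groups of 4 values examined (levels, shares and ratios of the members, and pathway models), this was the 1 that passed, and chance flags about 1 in 20. The level of du1 itself was highest in that library, at 101.9 RPM, beside su2 at 19.2 RPM and ss1 at 32.3 RPM, also their highest values. The part of the differing marker levels of replicate 4 in this share was not tested.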

How the results depend on the processing

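No paired analysis was possible because there is 1 group. Division by coding length was not run, so ratios between genes are ratios of reads. The 6 ratios between members and the difference of soluble and granule-bound genes kept their direction with pseudocounts of 0.1 and 1 RPM and without each replicate. The number of members called by the chi-square test was 3, against 1 with library totals, and between 0 and 3 when 1 replicate was left out. The number of all genes called was 8096, against 3156 to 7548 with 1 replicate left out, lowest without replicate 4. Without the filter on reads the call of du1 was lost (chi-square adjusted p = 0.056). Pathway models at 1 RPM or more were 4, or 9 with symbols matching several models included. The mean level of su2 ranged from 11.3 to 14.3 RPM with 1 replicate left out. The leave-one-out values of the shares were added after the data were seen. Depth limits gbss2a, with 11 to 20 reads a library, and wx1, for which 3 reads is the floor.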
